A study of Homo sapiens with 12 samples.

Results

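The genes described here are the replication-dependent histone genes of the human array, chosen by a rule on their symbols. The rule was set with earlier results of these data known. It takes every probe annotated, by a current or an older name, to a gene symbol of the H1, H2A, H2B, H3 or H4 type. This gave 72 genes with 81 probes, of 48102 probes with a value, and 38 of the 72 genes passed the filter for testing, among 13514 named genes tested in all. The symbol rule also takes in H1-10, a linker histone gene whose expression is not tied to replication, and the germ-cell histones H1-6, H1-7, H1-8, H2AC1 and H2BC1, so the name covers its members loosely. RNA came from PC9, a lung adenocarcinoma cell line whose growth depends on an activating EGFR mutation. MRC-5, the partner in co-culture, is a line of human lung fibroblasts, kept apart from PC9 by inserts with pores of 1 µm. The 4 groups of 3 arrays were PC9 alone with DMSO, PC9 alone with 0.5 µM gefitinib (an EGFR kinase inhibitor), PC9 co-cultured with MRC-5 for 48 h, and PC9 co-cultured with MRC-5 for 48 h and given gefitinib. The labels carry the same treatment text on every sample, with gefitinib after 24 h, PBS washes and then EMEM with 10% FCS, so the medium of the monocultures and the presence of gefitinib during the co-culture are not settled by it. All co-culture titles end in WH and no monoculture title does, a mark that the labels do not explain. Whatever it stands for cannot be told apart from co-culture. Nothing in the labels says that the 3 samples of a group were separate cultures, so p-values measure the spread between these samples, which may be technical.

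Histones package DNA into nucleosomes, each built of H2A, H2B, H3 and H4, with H1 on the linker DNA. Most of their genes lie in clusters, are transcribed mainly in S phase, and give short intronless mRNAs that end in a stem-loop bound by SLBP in place of a poly(A) tail. Some of these genes also give polyadenylated transcripts, which have been described in differentiating or resting cells. The label was made with the Ambion MessageAmp kit, whose first strand is primed at poly(A) tails. Labelling therefore favours polyadenylated forms over stem-loop mRNAs. Which form gave each signal was not tested.

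H2A and H2B genes often stand back to back and share the DNA between them, so the stretch before the gene start is shown for both genes of a pair that moved together, H2BC21 and H2AC20, and for H2B genes that moved differently. Capitals mark the octamer ATTTGCAT and the CCAAT box on either strand (ATGCAAAT and ATTGG on the other), and TATAAA on the strand of the gene. Each run is the 120 bases before the RefSeq gene start in GRCh38.p14, 5′ to 3′ on the strand of the gene, and where RefSeq lists several starts for a symbol the one with the lowest coordinate was taken.
H2BC21 (chr1:149886683-149886802, minus strand): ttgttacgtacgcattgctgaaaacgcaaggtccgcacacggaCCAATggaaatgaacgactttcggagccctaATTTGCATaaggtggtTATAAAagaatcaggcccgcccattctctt
H2AC20 (chr1:149886798-149886917, plus strand): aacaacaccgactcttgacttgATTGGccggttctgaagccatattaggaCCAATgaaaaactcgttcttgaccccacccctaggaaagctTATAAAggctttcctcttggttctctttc
H2BC8 (chr6:26216689-26216808, minus strand): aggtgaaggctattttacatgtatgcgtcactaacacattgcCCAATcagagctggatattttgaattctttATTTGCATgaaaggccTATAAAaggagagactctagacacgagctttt
H2BC12 (chr6:27146856-27146975, minus strand): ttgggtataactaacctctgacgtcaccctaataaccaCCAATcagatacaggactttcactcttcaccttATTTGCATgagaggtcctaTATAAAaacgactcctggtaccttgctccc
H2BC11 (chr6:27132796-27132915, minus strand): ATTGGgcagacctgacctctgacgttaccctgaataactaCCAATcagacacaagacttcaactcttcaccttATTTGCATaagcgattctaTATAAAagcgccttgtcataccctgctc
H2BC5 (chr6:26158001-26158120, plus strand): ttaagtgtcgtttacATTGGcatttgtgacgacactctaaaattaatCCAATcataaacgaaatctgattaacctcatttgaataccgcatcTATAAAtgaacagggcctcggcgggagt
The octamer began 46 bases before the start of H2BC21, 48 before that of H2BC8, 49 before that of H2BC12 and 47 before that of H2BC11. The 120 bases of H2BC5 and H2AC20 held no exact match.

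RefSeq promoters were found for 67 of the 72 genes, each a window from 250 bases before to 50 after the start. The octamer stood in 14 of 18 H2B windows and 11 of 16 H2A windows, some of which overlap the window of a paired H2B gene. It stood in 0 of 9 H1, 0 of 11 H3 and 0 of 13 H4 windows, and in 1.77% of all 35116 windows of this length. TATAAA was present in 9 of 18 H2B and 11 of 16 H2A windows, against 7.33% of all windows. It was also in 4 of 9 H1, 7 of 11 H3 and 7 of 13 H4 windows. A CCAAT box stood in 18 of 18 H2B and 16 of 16 H2A windows, against 34.6% of all windows. The other families had it in 8 of 9 H1, 11 of 11 H3 and 3 of 13 H4 windows. Among the H2B genes the octamer was in 5 of 6 that were higher with gefitinib, in the 1 that was lower, in 1 of 2 without a call and in 7 of 9 that could not be tested. Among the H2A genes it was in 4 of 7 that were higher, 3 of 3 without a call and 4 of 6 not tested. The letters were therefore present in genes of every response, as in H2BC12 and H2BC11 above. The genes counted as higher include H2BC8, H2AC8 and H2AC21, which needed gefitinib arrays to pass the filter. Their calls support nothing.

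Array depth was similar in all groups, with 20917 to 22820 of the 48102 probes above background. Of the 81 histone probes, 32 to 33 were above background (detection p under 0.05) on the DMSO arrays, 36 to 39 with gefitinib alone, 32 to 33 in co-culture, and 31 to 40 in co-culture with gefitinib. A gene was tested if a probe was above background on at least 3 of the 12 arrays. By family, 4 of 9 H1, 10 of 17 H2A, 9 of 18 H2B, 9 of 13 H3 and 6 of 15 H4 genes met this. The 34 genes that did not had signals of 73.6 to 127.5 intensity units on all arrays. Of these, 16 were above background on 0 arrays, 13 on 1 and 5 on 2, and they include H1-5 and H3C3. A further 6 tested genes were above background on exactly 3 arrays, among them H1-7, H2BC9 and H3C1. Of the 38 tested genes, 17 were above background on every array. A gene that passed because it was bright with gefitinib had to differ, so counts are given for those 17 as well, and no count over the 38 is used as support. Of the genes that rose in monoculture, 4 had too few arrays without gefitinib to pass by those alone: H2AC8, H2BC8, H2AC21 and H3C4. The calls of these 4 support nothing.

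The first comparison asked what gefitinib did to these transcripts in PC9 grown alone. Most of the well-measured H2A and H2B genes had higher signals with the drug, several by 4-fold or more, with H1-2 and H4C8, while H2BC11 and H4C3 were lower. Of the 38 tested genes 18 rose and 2 fell (limma moderated test, adjusted over all genes), where 40.8% of all genes were called, 21.1% as higher and 19.7% as lower. Of the 17 genes above background on every array, 11 rose, 2 fell and 4 were not called. Of all 9717 genes above background on every array, 50.4% were called, 25.2% as higher and 25.2% as lower. The 38 had a median change of 0.26 on the log2 scale, against 0.003 for all genes. The arrays of both groups did not overlap for 20 of the 38, as for 50.0% of all genes. RNA from a bulk sample cannot tell fewer cells with a transcript from less transcript per cell.

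**Figure D1:**
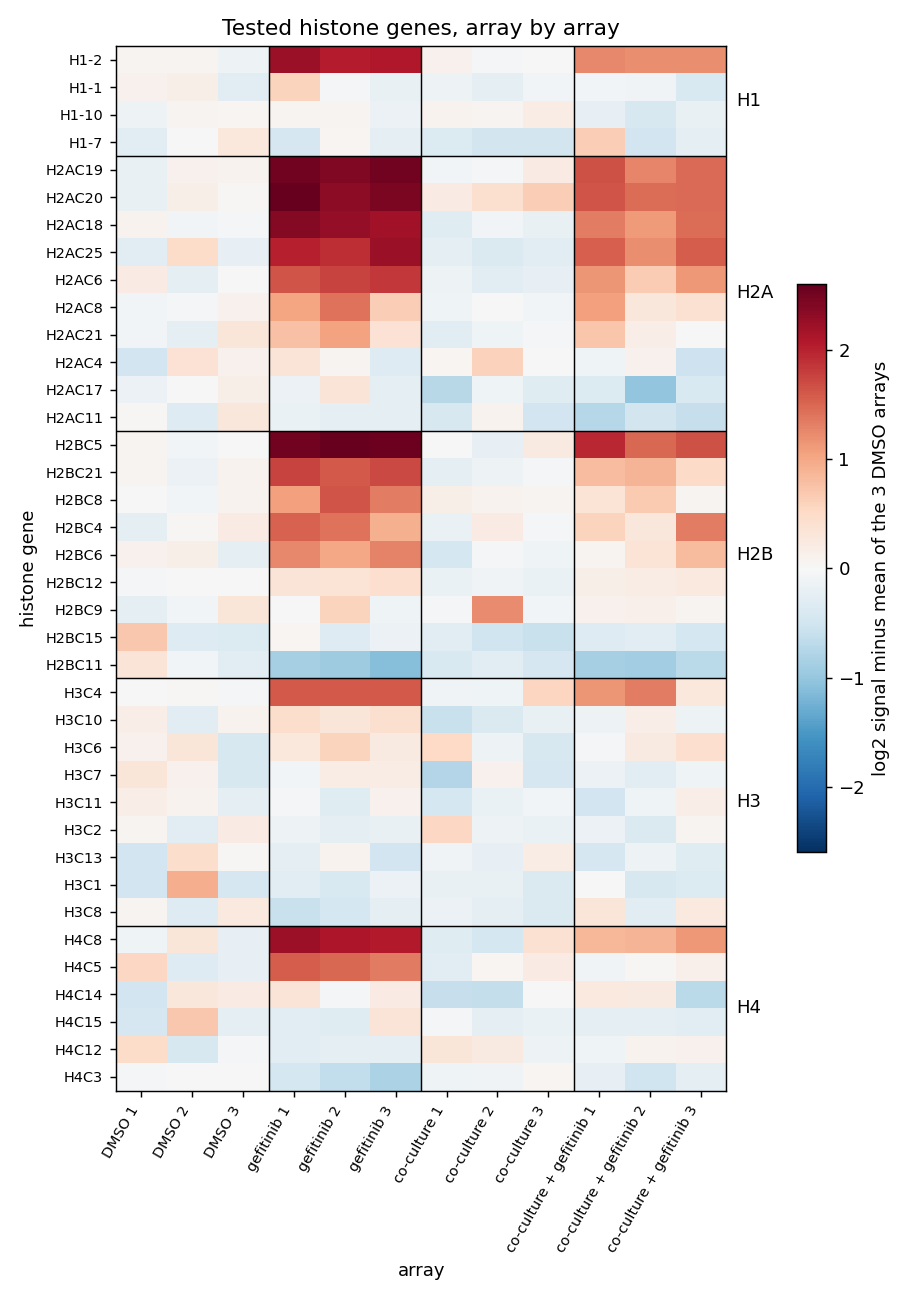
Signal of each of the 38 tested histone genes on each of the 12 arrays, as log2 signal minus the mean of the 3 DMSO arrays, with families separated by lines and genes ordered within a family by their change with gefitinib in monoculture. The 3 arrays of gefitinib alone are red for the upper rows of H2A and H2B and for H1-2, H3C4, H4C8 and H4C5, and the 3 arrays of co-culture with gefitinib are paler for most of them.

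In the H2A family 7 of 10 tested genes rose, and 5 of the 7 above background on every array. H2AC18 and H2AC19 are near-identical copies of 1 H2A gene, so their probes may read each other's transcripts and are uncertain as separate genes. H2AC18 stood at 8.25, 8.09 and 8.13 (log2 signal) on the DMSO arrays and at 10.55, 10.44 and 10.34 with gefitinib, a change of 2.28 ± 0.11 (SE, n = 3 per group, limma adjusted p = 5.28e-08). A second H2AC18 probe rose by 2.02, and H2AC19 by 2.48. H2AC20, the partner of H2BC21, rose from 6.67, 7.02 and 6.89 to 9.46, 9.18 and 9.30, a change of 2.45 ± 0.13 (n = 3, limma adjusted p = 1.10e-07). In these genes the gefitinib arrays lay far above the DMSO arrays, with no overlap. H2AC25, a gene of a small cluster on chromosome 1, rose by 2.06 ± 0.19, and H2AC6, which encodes a common H2A protein, by 1.74 ± 0.15. H2AC8 was above background on 0 of 3 DMSO arrays and 3 of 3 gefitinib arrays, which makes its signal at least 1.98-fold higher. It passed the filter through gefitinib arrays alone, as did H2BC8, so its call supports nothing. Such a bound is the bright group's mean over the dim group's mean. Any dim-group signal under the dimmest probe above background on its array was first raised to that probe. H2AC21 rose by 0.72 ± 0.21 (adjusted p = 0.0177), a call lost without DMSO array 1 (0.68), without DMSO array 2 (0.61) or without gefitinib array 2 (0.57). It needed gefitinib arrays to pass the filter, so its call supports nothing either. H2AC4, H2AC11 and H2AC17 had changes from -0.22 to 0.02 and no call.

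Among the H2B genes 6 of 9 rose and 1 fell, and of the 5 above background on every array 4 rose and 1 fell. The largest change of all members was that of H2BC5, which rose from 9.30, 9.16 and 9.20 to 11.73, 11.81 and 11.77, or by 2.55 ± 0.14 on the log2 scale (5.86-fold, n = 3, limma adjusted p = 9.78e-08). A second probe for the same RefSeq transcript rose by 2.54. One more probe, for another transcript of this gene, was above background on 0 of 12 arrays. H2BC21, whose gene is longer than the usual histone gene, stood at 7.89, 7.66 and 7.91 with DMSO and at 9.58, 9.42 and 9.53 with gefitinib, and rose by 1.69 ± 0.12 (adjusted p = 7.57e-07). H2BC4 rose by 1.29 ± 0.25 and H2BC6 by 1.18 ± 0.19. H2BC8, at 0 of 3 DMSO arrays above background, was at least 2.50-fold higher. H2BC12 was far above background in every group and rose less, from 12.61, 12.65 and 12.64 to between 12.96 and 13.07 on the 3 gefitinib arrays, a change of 0.37 ± 0.08 (adjusted p = 0.0022). Its second probe rose by 0.54, and under median scaling of the arrays the change of H2BC12 was 0.12 and not called, or 0.24 relative to the median of all genes (-0.12).

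H2BC11 went the other way, although its upstream stretch holds the same 3 motifs as that of H2BC12. Its signal was 7.72, 7.31 and 7.10 with DMSO and 6.52, 6.45 and 6.27 with gefitinib, a fall by 0.96 ± 0.14 on the log2 scale (n = 3, limma adjusted p = 0.000225). All 3 gefitinib arrays lay below all 3 DMSO arrays. H2BC9 and H2BC15 had changes of 0.15 and -0.15 and no call.

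Of the linker histones only H1-2, a somatic H1, was called among the 4 tested. It stood at 9.36, 9.37 and 9.16 with DMSO and at 11.53, 11.34 and 11.38 with gefitinib, and rose by 2.12 ± 0.09 (n = 3, limma adjusted p = 2.73e-08). H1-10, far above background in every group, had a change of 0.003 ± 0.102. H1-1 and H1-7 had changes of 0.11 and -0.21, close to background.

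In the H4 family H4C8 and H4C5 rose, H4C3 fell and 3 genes were not called. The H4 genes encode 1 protein from different copies, and their probes may share targets. H4C8 went from 5.85, 6.26 and 5.74 to 8.18, 8.05 and 8.01, a rise by 2.13 ± 0.20 (n = 3, limma adjusted p = 6.97e-06). H4C5 rose by 1.47 ± 0.20 and was above background on 1 of 3 DMSO arrays and 3 of 3 gefitinib arrays. H4C3, another H4 copy, was at 13.84, 13.88 and 13.88 with DMSO and 13.41, 13.22 and 13.05 with gefitinib, a fall by 0.64 ± 0.11 (limma adjusted p = 0.000802). Its groups did not overlap. In the H3 family 2 of 9 genes were called. H3C4 was above background on 0 of 3 DMSO arrays and stood at 6.19 on each of the 3 gefitinib arrays, 3.01-fold higher. None of its DMSO signals had to be raised, so its bound is the plain fold. H3C10 rose by 0.40 ± 0.14 at an adjusted p of 0.0446, a call lost without any 1 of 8 of the 12 arrays, with changes between 0.26 and 0.49. The other 7 H3 genes had changes from -0.43 to 0.36 without a call, and the 3 H3C13 probes differed in sign.

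**Figure D2:**
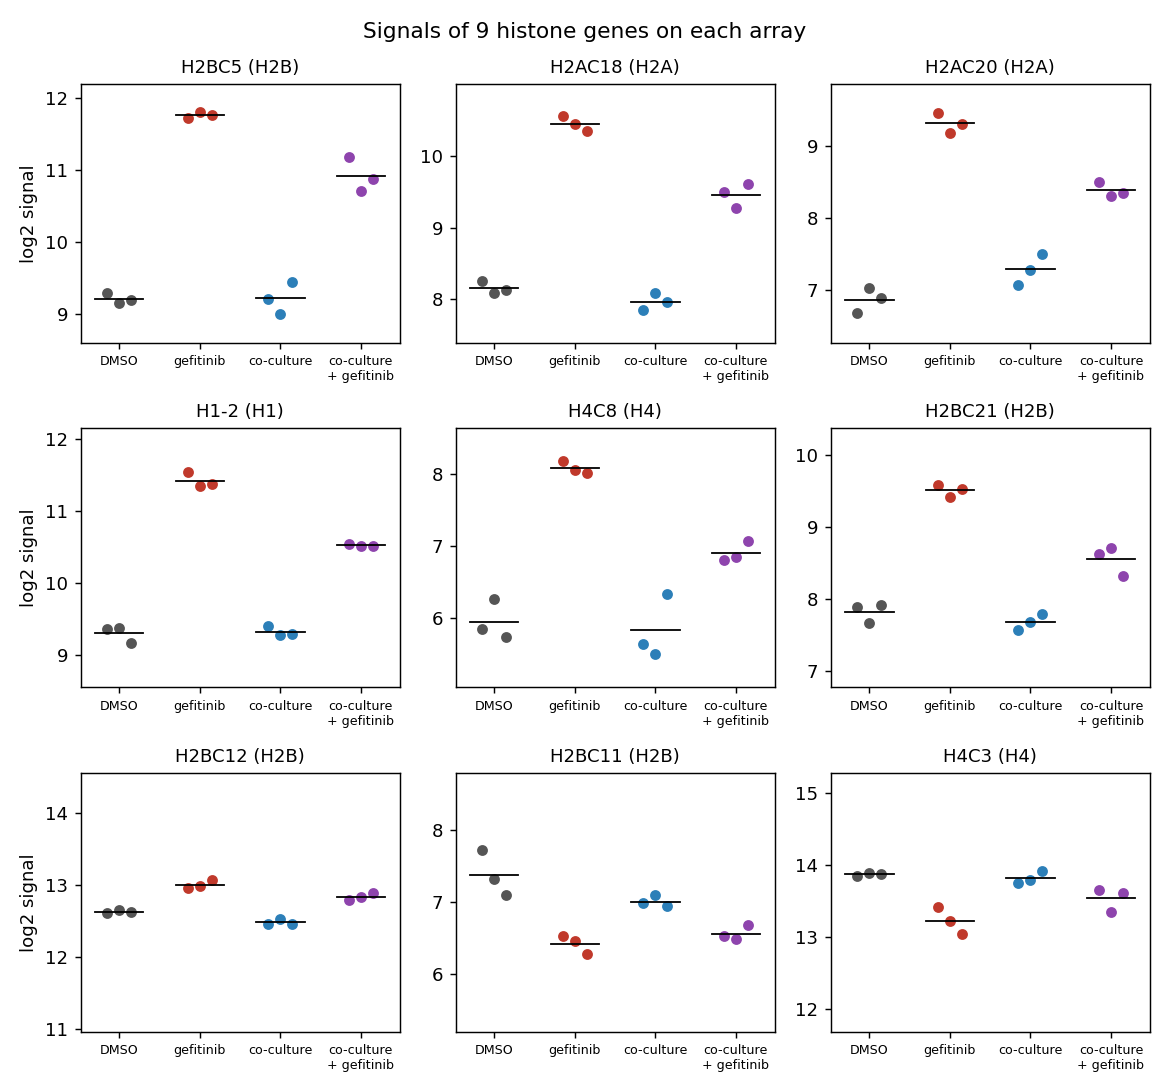
Log2 signal of 9 histone genes on each array (points) with the mean of each group of 3 (bars), on axes of equal span. H2BC5, H2AC18, H2AC20, H1-2, H4C8 and H2BC21 rise with gefitinib and stand lower in co-culture with gefitinib than with gefitinib alone, H2BC12 changes by 0.37, and H2BC11 and H4C3 are lower with gefitinib alone.

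Gene structure was taken from RefSeq (GRCh38.p14), as a description with no test. The 18 genes that rose include H2AC8, H2BC8, H2AC21 and H3C4, which needed gefitinib arrays to pass the filter. Counts over the 18 therefore support nothing. Genes with 2 curated transcripts made up 4 of the 18 that rose, H2BC4, H2BC5, H2BC12 and H3C4, against 1 of 18 without a call and 2 of 34 not tested. Their annotated lengths were 10757, 13229, 8566 and 2510 bases. Genes over 1000 bases made up 5 of the 18 that rose, 4 of the 18 not called and 2 of the 34 not tested, and the medians of length were 518 and 505 for the first pair. Of 8 members known for polyadenylated transcripts, H1-2, H2AC6, H2BC4, H2BC5, H2BC11, H2BC12, H2BC21 and H4C8, 7 were higher and 1 lower (median 1.72). The list was drawn up with these changes known, so its count and median support nothing. By position, 6 of the 18 lay on chromosome 1 and 12 on chromosome 6, where 13 and 55 of all 72 members lie.

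Back-to-back H2A and H2B genes with starts within 500 bases of each other made up 11 pairs among the 67 members with a promoter window. Pairs with a member that lacks a window, such as H2AC12, could not be found. In 4 pairs both genes were tested. In 3 of these both rose: H2BC21 (1.69) with H2AC20 (2.45), H2BC4 (1.29) with H2AC6 (1.74), and H2BC8 (1.34) with H2AC8 (1.03). H2BC8 and H2AC8 passed the filter through gefitinib arrays alone, so they had to be higher, which leaves 2 pairs that both rose among 3. In the last, H2BC11 fell by 0.96 and H2AC11 changed by -0.22 without a call. In 3 more pairs 1 gene was tested: H2AC25 rose by 2.06 beside H2BC26, while H2AC17 beside H2BC17 (-0.02) and H2BC15 beside H2AC15 (-0.15) had no call. The starts of the 4 pairs lay 233 to 248 bases apart.

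One probe is annotated to both H3C6 and H3C11 and was kept out of the gene counts. Its signal was 121.5, 102.6 and 115.3 intensity units with DMSO and 227.8, 214.2 and 226.3 with gefitinib, a change of 2.04 ± 0.19 on the log2 scale. The H3C6 probe used changed by 0.36 and the H3C11 probe by -0.09, both without a call, so which transcript the shared probe reads is not settled by the other 2.

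Related genes were read beside the histones, against 19.7% of all genes lower and 21.1% higher. Of 21 chaperones, which carry histones to DNA, 14 fell, 0 rose and 7 had no call, with a median of -0.53. CHAF1B, a subunit of the assembly factor that follows the replication fork, fell by 1.59 ± 0.13 on the log2 scale. HJURP, which loads the centromeric histone, fell by 1.46 ± 0.09. ASF1B fell by 1.29 ± 0.10 and CHAF1A by 1.32 ± 0.23. Among 21 factors of histone transcription and mRNA processing 10 fell, 9 had no call and 2 rose, TUT7 (0.73) and HINFP (0.31), with a median of -0.46. CCNE1, the cyclin of S-phase entry, fell by 1.49 ± 0.11, and its kinase CDK2 by 0.99 ± 0.13. ERI1, the nuclease that trims histone mRNA ends, fell by 1.21 ± 0.12, LSM10 of the U7 particle by 0.75 ± 0.09, and SLBP by 0.74 ± 0.12 (adjusted p = 0.000425). NPAT, the coactivator of histone transcription, had a change of -0.46 ± 0.19 and no call (adjusted p = 0.0773). Of 11 histone variants 5 fell, 2 rose and 4 had no call. CENPA, the centromeric H3, fell by 1.49 ± 0.09, H2AX by 1.16 ± 0.10 and H2AZ1 by 0.76 ± 0.12, while H2AJ rose by 1.14 ± 0.12 and H3-3A by 0.33 ± 0.10. Under median scaling HINFP (0.17) and H3-3A (0.10) were not called. The part of these changes in the histone signals was not tested.

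**Figure D3:**
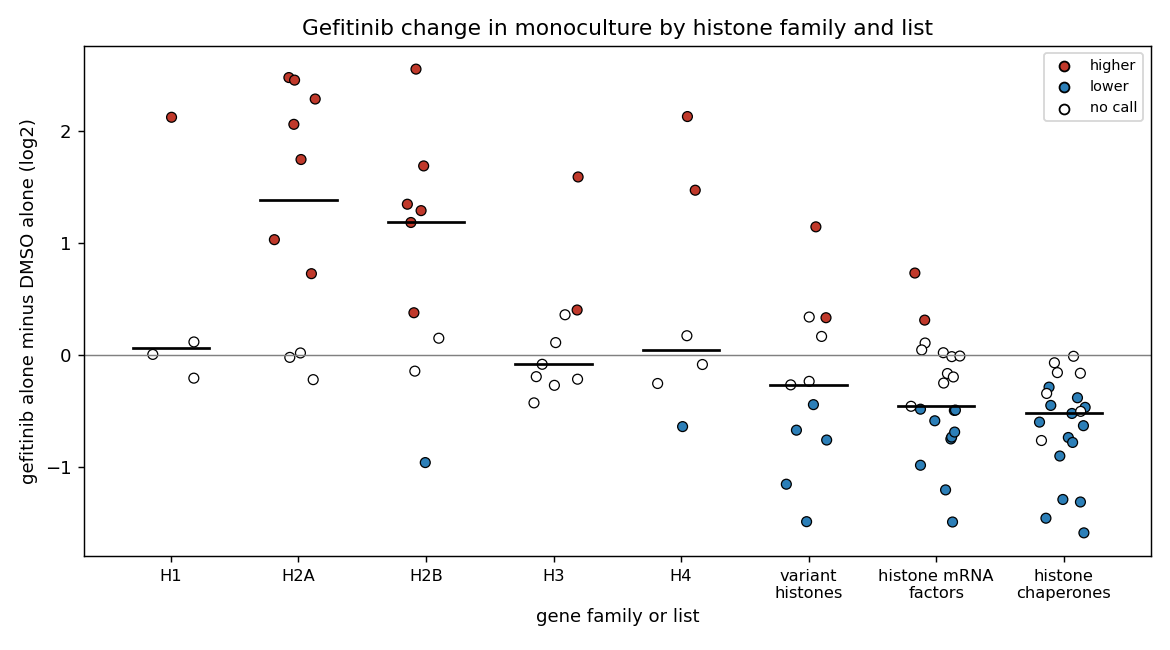
Change with gefitinib in monoculture (log2) of each tested gene, by histone family and for 3 lists of related genes, with calls in colour and a bar at each median. The medians are 1.39 for H2A and 1.18 for H2B, near 0 for H1, H3 and H4, and -0.27, -0.46 and -0.53 for the variants, the mRNA factors and the chaperones.

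In co-culture the question was whether gefitinib had the same action on these genes when MRC-5 cells shared the well. Of the 38 genes 12 were higher and 1 was lower, against 20.0% of all genes called, 10.9% as higher and 9.16% as lower. All 12 also rose in monoculture, where they are 12 of 18, and 7 of the 12 had a called difference between both cultures. Median scaling gave 14 higher and 0 lower. Among the 17 genes above background on every array, 10 rose, against 12.8% of such genes, and 1 fell. H2AC25 had the largest change, 1.75 ± 0.19, and H2BC5 rose by 1.70 ± 0.14, H2AC18 by 1.48 ± 0.11, H2AC19 by 1.43 ± 0.13 and H1-2 by 1.20 ± 0.09. The second H2AC18 probe rose less, by 0.78 ± 0.17. H2BC5 stood at 9.22, 9.00 and 9.45 in co-culture and at 11.19, 10.71 and 10.88 with gefitinib added, again without overlap, as for 18 of the 38 genes and 37.3% of all genes. H2AC6 (1.19), H2AC20 (1.10), H4C8 (1.08), H2BC21 (0.87) and H2BC12 (0.35) also rose. H3C4 (0.80, adjusted p = 0.0376) and H2BC6 (0.61, adjusted p = 0.0411) did so with a call that was lost for each without any 1 of 8 arrays. H3C4 needed gefitinib arrays to pass the filter, so its call, counted among the 12, supports nothing. Without 1 array, H3C4 ranged from 0.59 to 1.11 and H2BC6 from 0.41 to 0.78. H1-10 fell by 0.39 ± 0.10 (adjusted p = 0.0183), a call lost without co-culture array 3 (-0.36, adjusted p = 0.063) or co-culture with gefitinib array 2 (-0.32, adjusted p = 0.0738). H2BC11 (-0.44, adjusted p = 0.0501) and H2BC4 (0.75, adjusted p = 0.0555) were not called, with an adjusted p just over the threshold. The chaperones fell in 7 of 21 and rose in 0, the mRNA factors fell in 3 and rose in 1 of 21, and the variants fell in 3 and rose in 1 of 11.

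Co-culture without gefitinib gave no call among the histone genes. Of 38 genes 0 rose and 0 fell by limma, 3 had an unadjusted p under 0.05, and 0.355% of all genes were called, 0.237% as higher and 0.118% as lower. H2AC20 had the smallest adjusted p, with 6.67, 7.02 and 6.89 in monoculture, 7.07, 7.27 and 7.50 in co-culture and a change of 0.42 ± 0.13 (adjusted p = 0.232). The changes ran from -0.46 to 0.42. A p over the threshold does not show that the levels were alike.

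With gefitinib present, co-culture was set against gefitinib alone. Of 38 genes 11 were lower and 0 higher, where 13.5% of all genes were called, 6.38% as lower and 7.08% as higher. Of the 17 genes above background on every array 8 were lower, against 7.63% of such genes. Median scaling gave 8 lower of the 38: H2AC6 (-0.47, adjusted p = 0.104), H2BC5 (-0.56, adjusted p = 0.0566) and H2BC6 (-0.59, adjusted p = 0.0607) lost their calls. H4C5 was lower by the most, at 6.42, 6.36 and 6.20 with gefitinib alone and 4.77, 4.88 and 4.99 in co-culture with gefitinib (-1.45 ± 0.20, limma adjusted p = 0.00115). The latter 3 values lay near the dimmest probes above background on those arrays, at 4.56, 4.56 and 4.60. H4C8 was lower by -1.17 ± 0.20, H2AC19 by -1.01 ± 0.13 and H2AC18 by -0.99 ± 0.11. H2BC8 was lower by -0.98, but it passed the filter through gefitinib arrays alone, so its call, counted among the 11, supports nothing. H2BC21 (-0.96), H2AC20 (-0.93), H1-2 (-0.90), H2BC5 (-0.85), H2BC6 (-0.77) and H2AC6 (-0.77) were lower as well. The call of H2BC6 was lost without gefitinib arrays 1 or 3 or without co-culture with gefitinib arrays 1 or 2 (-0.74, -0.72, -0.60 and -0.73 in that order). H2AC25 (-0.62, adjusted p = 0.0512) was not called. Neither was H2BC12 on its brighter probe (-0.17), while its second probe (-0.40, adjusted p = 0.0499) and the mean of both (-0.28, adjusted p = 0.0473) were called lower. Of the chaperones 8 of 21 were higher and 0 lower, with CHAF1B at 0.97, ASF1B at 0.80 and NASP, which holds H3 and H4, at 0.74. The mRNA factors had 3 higher, among them CCNE1 (0.74), and 2 lower of 21, and the variants 3 higher and 1 lower of 11.

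The last test asked of each gene whether the gefitinib change differed between co-culture and monoculture. The change was smaller in co-culture for 9 genes and larger for 0, where 7.29% of all genes were called, 3.34% as lower and 3.94% as higher. Of the 17 genes above background on every array 7 were called, all lower, against 3.99% of such genes. In H4C5 the change went from 1.47 in monoculture to 0.03 in co-culture, a difference of -1.44 ± 0.29 (limma adjusted p = 0.0144). This gene was above background on 1 of 3 DMSO arrays and 2 of 3 co-culture arrays, so both changes start near background. H2AC20 went from 2.45 to 1.10 (-1.35 ± 0.19, adjusted p = 0.00334). H2BC8 went from 1.34 to 0.25, a difference of -1.09. H2BC8 was above background on gefitinib arrays alone, so its call, counted among the 9, supports nothing. H2AC19 (-1.04 ± 0.18), H1-2 (-0.92 ± 0.13), H2BC5 (-0.85 ± 0.19), H2BC21 (-0.82 ± 0.17) and H2AC18 (-0.80 ± 0.16) kept a change in both cultures, of a smaller size in co-culture. The second H2AC18 probe had a difference of -1.24 ± 0.24. H4C8 (-1.05 ± 0.29) sat at an adjusted p of 0.0499, and its call was lost without any 1 of 10 arrays. For H2BC5 it was lost without gefitinib array 2, without co-culture with gefitinib array 2 or without array 3 of that group, with differences of -0.83, -0.75 and -0.82. H2BC12 (0.37 and 0.35) and H3C10 (0.40 and 0.35) had differences of -0.02 ± 0.11 and -0.05 ± 0.20 without a call. The second H2BC12 probe changed by 0.54 and 0.35, a difference of -0.19 without a call. All 18 genes that rose in monoculture had the smaller change in co-culture, but they were picked by the monoculture change, so this count supports nothing by itself.

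**Figure D4:**
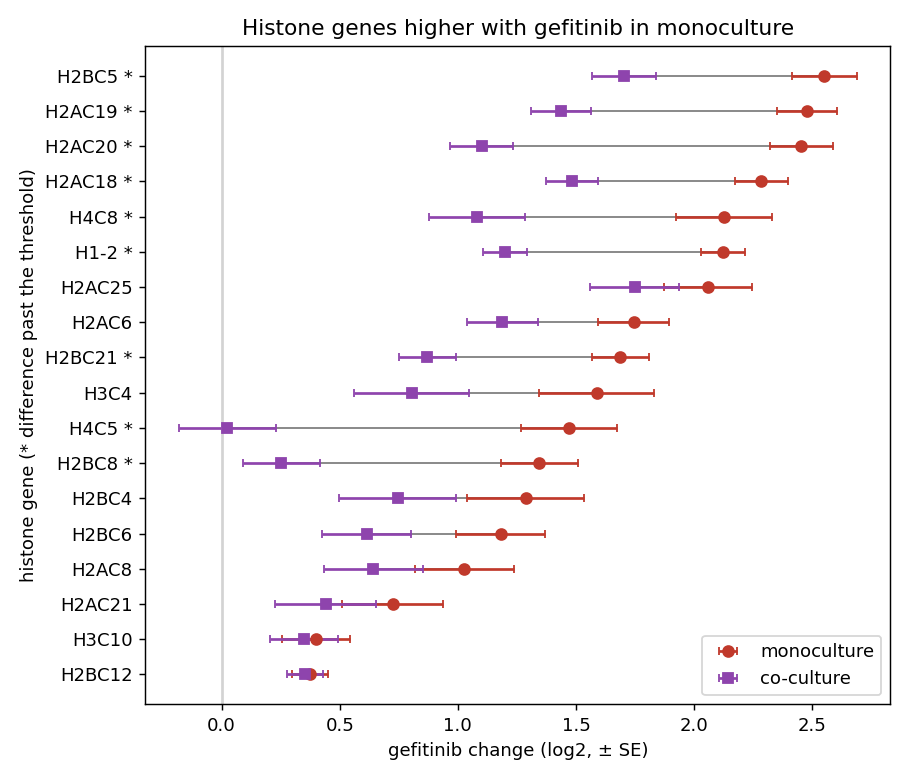
Change with gefitinib (log2, with SE) in monoculture (circles) and in co-culture (squares) for the 18 histone genes that rose in monoculture, ordered by that change, with a star where the difference passed the threshold. The squares lie to the left of the circles for all 18, by 1.44 for H4C5 and by 0.02 for H2BC12. The star of H2BC8 supports nothing, as this gene passed the filter through gefitinib arrays alone.

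Scaling bears on this difference. When arrays were scaled to a common median in place of quantile normalization, the median difference of all genes was 0.29, and 3 histone genes in place of 9 had a called smaller change, H2AC20, H4C5 and H2BC8. Of these, H2BC8 passed the filter through gefitinib arrays alone, so its call supports nothing. The other 6 had differences of -0.38 (H2AC18) to -0.67 (H4C8), with the same sign. Relative to the median of all genes, the 9 differences ran from -0.67 for H2AC18 to -1.60 for H4C5. Of 21 chaperones 4 had a called positive difference, co-culture minus monoculture. In these, HJURP, ASF1B, CHAF1B and DNAJC9, the fall with gefitinib was smaller in co-culture. The variants had 3 positive and 1 negative of 11, H2AJ (-0.77 ± 0.16, or -0.36 without a call under median scaling). The mRNA factors had 3 positive of 21. Median scaling gave 12 chaperones and 9 mRNA factors with a called positive difference. It also gave 8 higher and 0 lower mRNA factors in co-culture with gefitinib, and 2 lower chaperones in place of 7 with gefitinib in co-culture.

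Markers of the cells were read beside these results. All 9 epithelial markers were above background on every array, and their summed signal was 30570 to 33380 with DMSO, 39680 to 40980 with gefitinib, 30970 to 32900 in co-culture and 34390 to 35830 in co-culture with gefitinib, so it moved with the drug. Of 17 fibroblast markers 6 were tested, and COL3A1, LUM, PDGFRB, THY1, MEOX2 and FOXF1 were above background on 0 of 12 arrays. The summed signal of the 6 was 182.2 to 210.1 with DMSO, 271.9 to 286.7 with gefitinib, 180 to 232.7 in co-culture and 244.3 to 264.2 in co-culture with gefitinib. It rose with gefitinib in PC9 grown alone, where no fibroblasts were present by the labels. COL1A1 (1.35) and TWIST1 (0.74) carried that rise, and the other 4 had changes from -0.15 to 0.07 without a call. Its part in the histone results was not tested.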

How the data were processed

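Signals of 12 single-colour Illumina bead arrays of PC9 RNA were used. The deposited table gives for each probe and array an intensity, not normalized between arrays by the authors, and a detection p-value. The sources used here do not say how that p-value, or a second table normalized by the authors, was made. Per the labels' protocols, biotinylated cRNA was made from total RNA.

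Of 48107 probes 5 lacked a value. The others were corrected with neqc (limma 3.58.1, R 4.3.3; offset 16, quantile normalization, log2). A probe stayed in where 3 or more of the 12 arrays had a detection p-value below 0.05 (25510 probes). The 7221 without a gene were left out, and the brightest probe stood for each of 13514 genes. Limma fitted 4 group means to the 12 arrays together (8 residual and 3.3 prior degrees of freedom), and 5 contrasts were tested two-sided, adjusted by Benjamini-Hochberg, with a threshold of 0.05. The fit was tested on simulated data. The SE is limma's moderated one.

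Members, lists and rules were chosen with earlier results of these data known. Named were the members called in any contrast, counterexamples, and up to 6 genes of each other list. Promoter windows and gene lengths are from RefSeq (GRCh38.p14). Alternatives changed the background correction, the scaling, the source of values, the filter (none, or a detection p-value below 0.01 on 3 of 3 arrays in some group), the treatment of several probes, the replicate number as a block and the arrays in the fit.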

Additional observations from a re-analysis of the deposited data

Results flagged for a closer look

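In 9 histone genes the gefitinib change in co-culture differed from that in monoculture by limma's test of the difference. The differences on the log2 scale, co-culture minus monoculture, were -1.44 for H4C5, -1.35 for H2AC20, -1.09 for H2BC8, -1.05 for H4C8, -1.04 for H2AC19, -0.92 for H1-2, -0.85 for H2BC5, -0.82 for H2BC21 and -0.80 for H2AC18. Each was higher with gefitinib alone than with DMSO on 3 of 3 arrays. H2BC8 passed the filter through gefitinib arrays alone, so its call supports nothing. H4C5 was above background on 1 of 3 DMSO arrays and 2 of 3 co-culture arrays. The probe annotated to both H3C6 and H3C11, which no gene count used, had a change of 2.04 with gefitinib in monoculture, with all 3 gefitinib arrays above all 3 DMSO arrays.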

How the results depend on the processing

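No called change of a member reversed under any alternative run. Of 53 calls, 45 held without any 1 array. In monoculture 16 to 18 genes were higher and 2 to 3 lower under the alternatives run. Higher genes in co-culture with gefitinib against gefitinib alone numbered 1 without background correction, with median scaling and with the authors' values (H4C3), and 0 to 1 with each array left out. For the difference, median scaling gave 2 higher (H2BC11 and H4C3) and 3 lower, and leaving out arrays gave 0 to 1 higher and 7 to 9 lower. Lower genes with gefitinib in co-culture numbered 0 with median scaling, 2 without background correction, with the authors' values, the strict filter, the mean of probes or the compared groups alone, and 0 to 2 with each array left out. Lower genes in co-culture with gefitinib against gefitinib alone numbered 8 with median scaling. The other ranges without 1 array were 10 to 12 (co-culture, higher) and 10 to 13 (lower with gefitinib, co-culture against monoculture). Causes were not tested. Under median scaling the median over all genes was -0.12 in monoculture, 0.13 in co-culture, 0.19 for co-culture with gefitinib and 0.29 for the difference, and the share of higher among all calls went from 51.66% to 32.96%, 54.28% to 83.71%, 52.61% to 91.15% and 54.11% to 95.08%. Same-numbered arrays did not deviate together (r -0.038 to 0.039 over 18 pairs, 0 over 0.1), so the numbers pair nothing; with the replicate block 17 genes were higher in monoculture, 10 in co-culture, and 8 had a smaller change in co-culture. Without background correction the changes of dim genes are smaller by construction. Probes near background have a bound or a wide error only, and the number of arrays limits the precision. For the 34 untested genes no change could be measured.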
